A study of Mus musculus with 4 samples.

Results

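Expression of 9 genes of interferon signalling was examined in single cells of mouse malignant ascites: the interferon-gamma receptor chains Ifngr1 and Ifngr2, the receptor-bound kinases Jak1 and Jak2, the signal transducer Stat2, the interferon regulatory factors Irf1, Irf8 and Irf9, and the feedback inhibitor Socs1. The genes were taken by name, and all 9 were present in each of the 4 matrices, which joined to 29835 genes. Their levels were read in cells gated by a few transcripts, with tumour, myeloid, T and B gates. C57BL/6 mice, per the study's methods young females, carried ID8-Trp53-/- cells, a mouse ovarian surface epithelial line without p53 that forms ascites. Treatment began 7 days after intraperitoneal injection and went on to an ascites volume of about 3 mL. Control mice received DMSO and the isotype antibody IgG2a, the BTYNB group BTYNB and the isotype antibody, the anti-PD-1 group DMSO and the blocking antibody RMP1-14, and the combination group BTYNB and RMP1-14. BTYNB is an inhibitor of Igf2bp1, a protein that binds RNA, and RMP1-14 blocks a receptor that restrains T cells. The labels give 50 mg/kg of BTYNB and 100 ng of antibody per dose, the methods of the study give other amounts, and the files do not settle which was used. The tumour cells of every group lack Trp53, and cells of the animals of a treatment were pooled into 1 library, so the spread between animals is not known and no difference below carries a p-value.

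Interferon-gamma binds a receptor built from Ifngr1 and Ifngr2, which carry Jak1 and Jak2. Their signal acts at gamma-activated sites (GAS) of promoters and switches on Irf1, a transcription factor that drives antigen presentation and PD-L1. Type I interferons act through another receptor pair and through a complex that holds Stat2 and Irf9 and binds interferon-stimulated response elements (ISRE). Socs1 blocks the JAK kinases and ends the signal, while Irf8 is best known as a lineage factor of dendritic cells, monocytes and B cells. The comparisons address how an inhibitor of Igf2bp1 and PD-1 blockade, alone and together, bear on interferon signalling in tumour and immune cells.

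The promoters are shown because several of these genes are known to be targets of the pathway they serve. RefSeq (GRCm38.p6) listed 12 start sites for the 9 genes, and the 250 bases before each were searched on both strands for TTCNNNGAA, the core of a GAS, which reads the same on both strands, and for the core of an ISRE, GAAA repeated after 2 free bases, which reads TTTC repeated on the other strand. GAS letters stood before 1 of the 2 start sites of Irf1 and 1 of the 2 of Irf8, ISRE letters before Stat2 and Socs1, and the other 5 genes had no match in this window. Among all 32851 promoters of the table, 7.02% held the GAS letters and 2.98% the ISRE letters. The capitals below mark the matches, 1 in Irf1, 2 in Irf8, 1 in Stat2 and 2 overlapping ones in Socs1. The coordinates are those of GRCm38.p6, not of GRCm39, to which the submitters' processing notes refer.
Irf1, chr11:53769764-53770013, plus strand: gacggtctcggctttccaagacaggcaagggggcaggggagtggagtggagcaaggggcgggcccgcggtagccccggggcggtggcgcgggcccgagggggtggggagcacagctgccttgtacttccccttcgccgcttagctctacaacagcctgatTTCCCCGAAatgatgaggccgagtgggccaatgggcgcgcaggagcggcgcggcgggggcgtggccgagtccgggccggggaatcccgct
Irf8, chr8:120736108-120736357, plus strand: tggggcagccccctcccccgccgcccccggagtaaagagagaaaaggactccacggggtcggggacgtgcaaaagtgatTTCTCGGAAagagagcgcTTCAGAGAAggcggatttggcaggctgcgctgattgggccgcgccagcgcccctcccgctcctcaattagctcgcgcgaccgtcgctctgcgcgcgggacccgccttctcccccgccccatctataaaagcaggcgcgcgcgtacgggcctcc
Stat2, chr10:128270248-128270497, plus strand: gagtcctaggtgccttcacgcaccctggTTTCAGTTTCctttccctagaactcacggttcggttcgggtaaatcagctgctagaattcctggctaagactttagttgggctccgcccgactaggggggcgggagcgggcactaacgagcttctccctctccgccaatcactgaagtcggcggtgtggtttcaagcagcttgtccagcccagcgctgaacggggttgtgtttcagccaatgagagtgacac
Socs1, chr16:10785537-10785786, minus strand: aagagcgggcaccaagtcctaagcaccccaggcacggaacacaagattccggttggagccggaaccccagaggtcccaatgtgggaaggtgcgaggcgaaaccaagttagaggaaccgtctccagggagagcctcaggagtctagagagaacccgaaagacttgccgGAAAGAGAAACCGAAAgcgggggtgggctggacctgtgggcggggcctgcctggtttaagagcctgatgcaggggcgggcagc

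With control treatment 7858 cells were deposited, after BTYNB 19247, after anti-PD-1 12163 and after both agents 7074, with between 78603888 and 114600397 UMIs each, where a UMI is 1 counted transcript molecule. The BTYNB library stood apart: its smallest cell had 869 UMIs, against 5115 in combination, and its median cell 2562 UMIs, against 6908 to 9480.5 in the others. Of 46329 cell labels, 13 occurred in more than 1 library. In the order of treatments just given, the tumour gate held 7114, 3606, 10923 and 4369 cells, and the myeloid gate 292, 3134, 384 and 1258. The T and B gates held 2481 and 3475 cells in BTYNB and 158 and 286 in combination, but only 22 to 39 in control and anti-PD-1, too few for ratios. Tumour markers that the gates did not use (Msln, Upk3b, Lgals7 and others, 8 genes) summed to 1442 to 1696 CPM (the share of all UMIs of the pooled cells, on the counts-per-million scale) in the tumour gate, and 7 pan-leukocyte markers to 51.5 to 206.5 CPM there against 6965 to 9976.5 CPM in the myeloid gate. The T and B gates went against their names in part. Keratins summed to 664 CPM in T-gated and 1057 CPM in B-gated combination cells, against 288 and 731 CPM after BTYNB and 1271 to 2077 CPM in the tumour gate, so these gates held cells or RNA of tumour type as well, and the ratios between the BTYNB and combination libraries in these gates are given with and without cells of several gates, while their levels against tumour cells are those of the gates as given, except where exclusive gates are named. Exclusive T and B gates, called cells of a single gate below, also required at most 2 keratin UMIs per cell. Intervals are 95% counting intervals of single libraries.

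Receptor chains, kinases and transcription factors were placed differently over the compartments. In the BTYNB library, which held enough cells of every gate, 5 of the 9 genes were at least 2-fold higher in the myeloid than in the tumour gate (18.1% of 13297 genes were, and 32.6% were lower by as much), 5 in the T gate (17.3% higher and 24.9% lower) and 6 in the B gate (15.4% higher and 9.26% lower). None of the 9 was at least 2-fold lower in a leukocyte gate. In the combination library 4 were higher in the myeloid gate (15.9% of genes), 4 in the T gate (9.62%) and 2 in the B gate (5.96%), and 0 were lower by as much (30.5%, 10.8% and 2.64%). Ifngr1 was at 23.4 CPM (22.2 to 24.7) in tumour, 354 CPM (345 to 363) in myeloid, 605 CPM (588 to 623) in T and 82.9 CPM (78.1 to 87.9) in B gated cells. Its partner chain Ifngr2 showed another order, with 52.3 CPM in tumour, 90.6 CPM in myeloid, 46.7 CPM in T and 77.0 CPM in B gated cells. The tumour cells thus had the lowest Ifngr1 level of the 4 gates and an Ifngr2 level just above that of T cells, by 0.16 on the log2 scale (interval 0.01 to 0.33). Jak1, which serves most cytokine receptors, was 6.58-fold higher in the T and 2.01-fold higher in the myeloid than in the tumour gate. In combination the T gate differed less from the tumour gate, by 2.78-fold for Jak1, by 1.44-fold against 3.15-fold after BTYNB for Irf1, and by 2.58-fold against 8.50-fold for Socs1. In T cells of a single gate the log2 ratio over tumour cells was 3.04 (2.98 to 3.10) after BTYNB and 1.94 (1.66 to 2.21) after both agents for Jak1, and 1.88 and 0.73 for Irf1. T-gated cells had a median of 2149 UMIs in BTYNB and 7500 in combination. Among T cells of a single gate with at least 5115 UMIs, Irf1 in combination over BTYNB was 0.16, with an interval that held 0. With that minimum alone, the T gate ratio of Jak1, combination against BTYNB, was -0.21. The part of depth in these differences was not tested. Irf8 had the widest spread, with 1.69 CPM in tumour against 284 CPM in myeloid, 186 CPM in B and 69.7 CPM in T gated cells.

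Between the myeloid and the tumour gate, Ifngr1, Ifngr2, Jak1, Stat2, Irf9, Irf1 and Irf8 were higher in myeloid cells in 4 of 4 libraries, with log2 ratios from 2.88 to 3.92 for Ifngr1 and from 6.85 to 7.39 for Irf8. Jak2 and Socs1 were higher in myeloid cells in 2 of 4 libraries, from -0.46 to 0.68 for Jak2 and from -0.45 to 0.37 for Socs1. Irf1, the factor closest to antigen presentation, had the narrowest range of the 7, from 0.42 to 0.64.

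**Figure D1:**
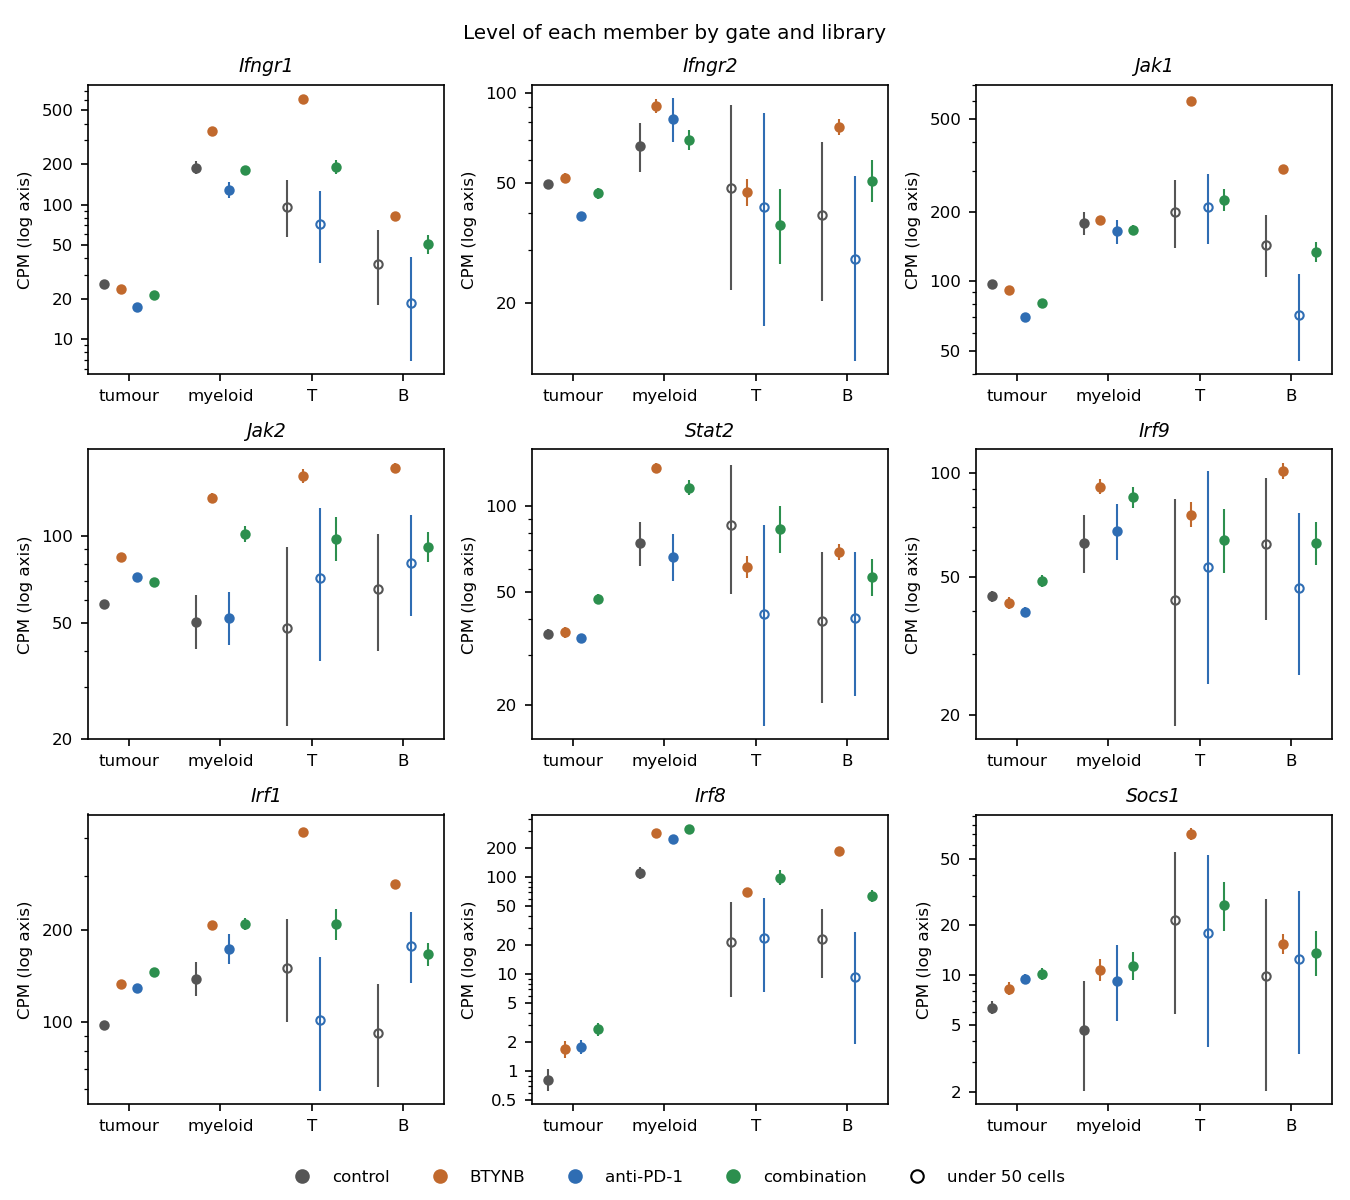
Level of each gene (CPM, log axis) in the tumour, myeloid, T and B gates of the 4 libraries. Points are pooled cells of 1 library, lines are 95% Poisson intervals, and hollow points are pools of under 50 cells. Irf8 in the tumour gate sits between 0.814 and 2.71 CPM, below each pool of the other gates.

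Finer pools were cut by lineage transcripts from cells with few keratin UMIs, and some of them overlap. Their median depth differed, with 1412 UMIs per cell in neutrophil-like and 2288 in CD8 T-like BTYNB cells against 15221 in the BTYNB tumour gate, and its part in the orders below was not tested. Irf8, the lineage factor, peaked in BTYNB cells gated as plasmacytoid dendritic-like by Siglech at 1847 CPM (1718 to 1983, 102 cells) and in type 1 dendritic-like cells, gated by Xcr1 and Clec9a, at 1412 CPM (1376 to 1448, 545 cells). Next came NK-like cells, gated by Ncr1 and Klrb1c, at 474 CPM (439 to 511), then mature dendritic-like cells, gated by Ccr7 and Fscn1, at 279 CPM. Type 2 dendritic-like cells, gated by Cd209a, were at 111 CPM. In combination the type 1 dendritic-like cells were at 1515 CPM (1474 to 1556, 485 cells) and the type 2 at 47.8 CPM, so the same pools stood far apart in both libraries.

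The kinases separated the same immune pools in another way. Jak2 was highest in mature dendritic-like cells at 1247 CPM (1199 to 1297) in BTYNB and 698 CPM (638 to 762) in combination. Type 1 dendritic-like cells followed at 427 and 306 CPM, and C1q macrophage-like cells were lowest at 75.0 and 52.7 CPM, below the tumour gate at 84.3 and 69.5 CPM. Jak1 was highest in NK-like cells at 1145 CPM (1091 to 1202) and lowest in the tumour gate, with CD8 T-like cells at 735 CPM and type 1 dendritic-like cells at 139 CPM between them.

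NK-like cells stood at opposite ends of the orders of the receptor chains. There Ifngr1 reached its highest level, 851 CPM (804 to 900), while Ifngr2 was at its lowest, 6.21 CPM (2.84 to 11.8) from 9 UMIs in 409 cells. CD4 and CD8 T-like cells followed with 716 and 658 CPM of Ifngr1 and 45.3 and 36.0 CPM of Ifngr2, and the intervals of the pair overlapped for both chains. Ly6c2 monocyte-like cells had 424 CPM of Ifngr1 and an Ifngr2 level of 109 CPM (99.9 to 119), the highest value, with an interval that overlapped that of the mature dendritic-like cells. Mature dendritic-like cells had only 60.0 CPM of Ifngr1 (49.7 to 71.7) in BTYNB and 50.3 CPM after both agents, but 91.0 CPM (78.3 to 105) and 76.8 CPM of Ifngr2.

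The transcription factors and Socs1 had still other maxima. Irf1 was highest in neutrophil-like cells, gated by S100a8 and S100a9, at 679 CPM (634 to 727) and lowest in type 1 dendritic-like cells at 102 CPM (92.2 to 112), where Irf8 was near its maximum. Combination type 1 dendritic-like cells were at 135 CPM of Irf1 (123 to 147) and the tumour gate at 145 CPM (142 to 148), with overlapping intervals. Irf9 was highest in neutrophil-like cells at 171 CPM. Its partner in the type I interferon complex, Stat2, was at 234 CPM (190 to 286) in plasmacytoid dendritic-like and 198 CPM (174 to 225) in neutrophil-like cells, whose intervals overlapped. Irf9 and Stat2 were lowest in the tumour gate, at 42.1 and 36.0 CPM, and the intervals of the NK-like cells next to it overlapped. Socs1 was highest in CD4 and CD8 T-like cells at 91.7 and 84.9 CPM, which did not differ beyond their intervals, and under 16 CPM in macrophage-like, monocyte-like, type 1 and type 2 dendritic-like, B and tumour pools.

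**Figure D2:**
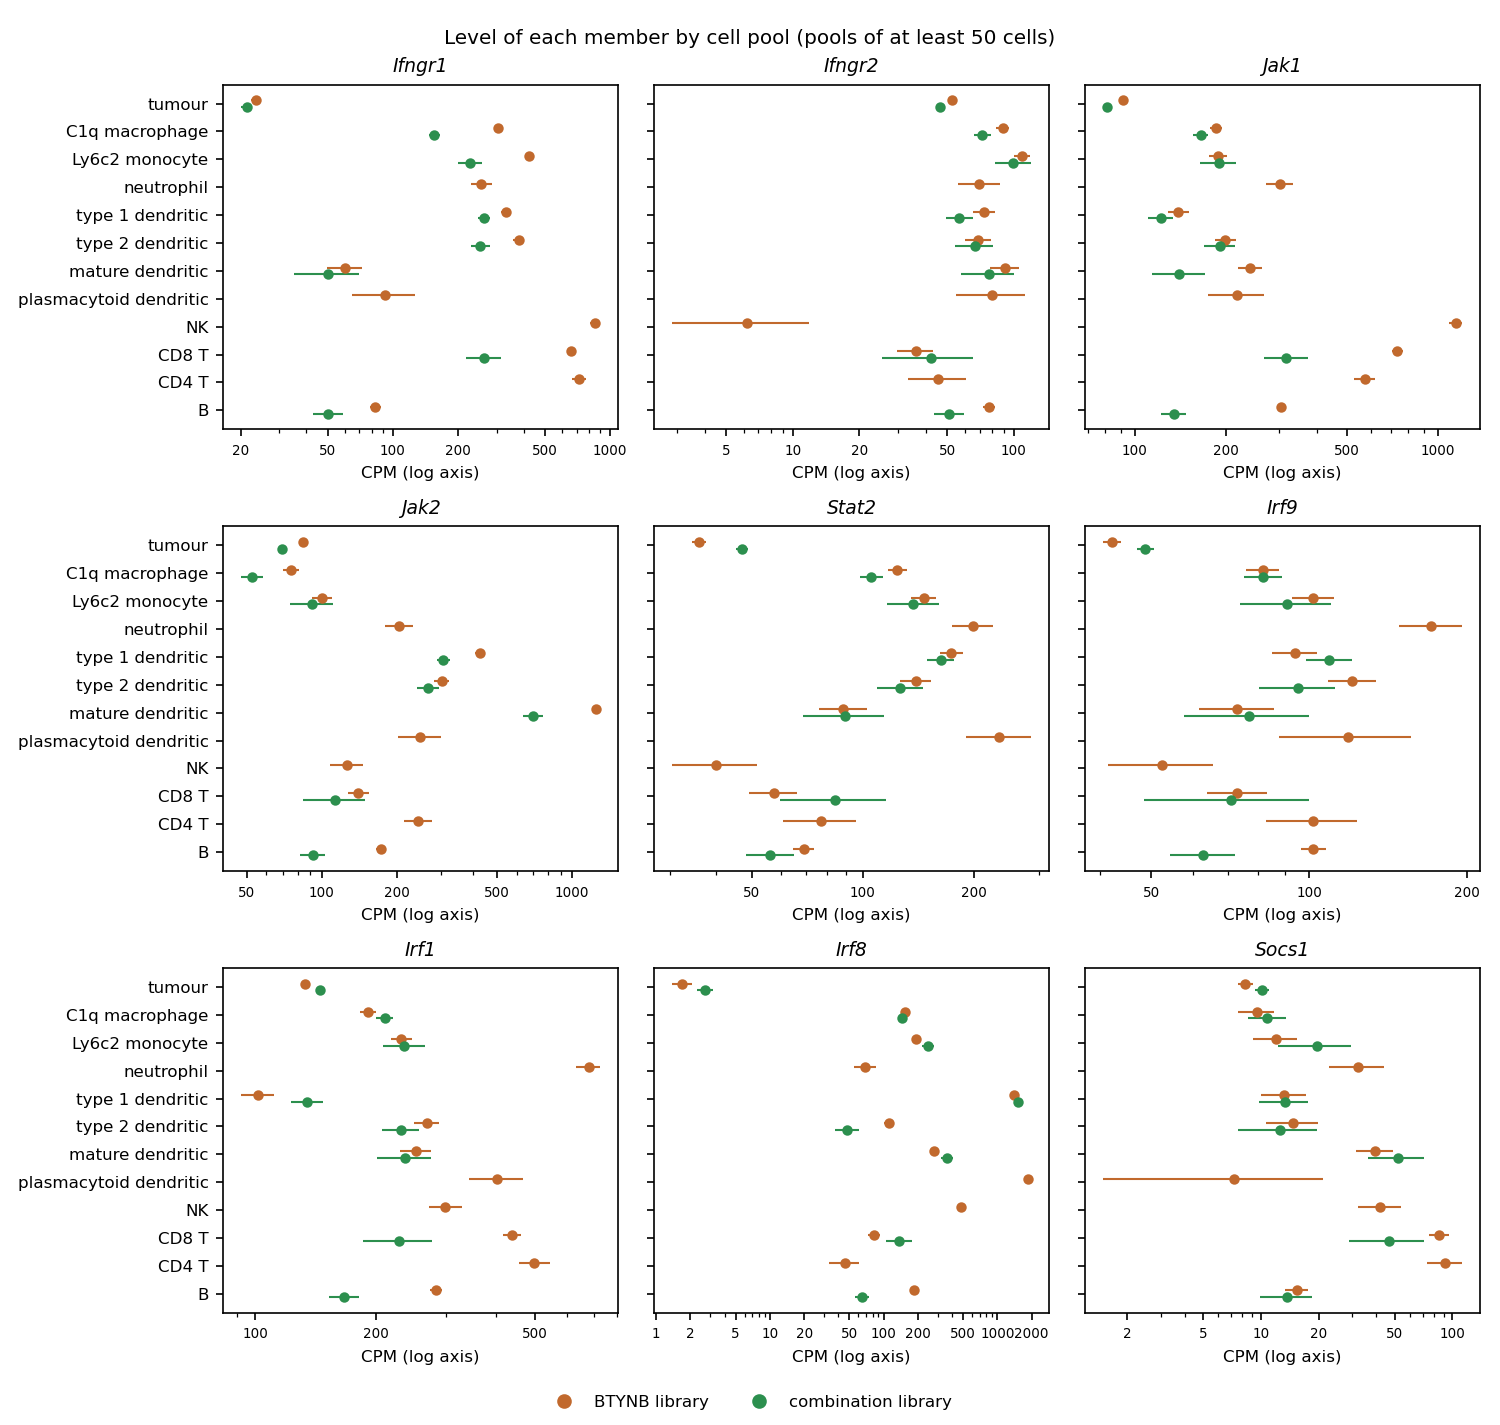
Level of each gene (CPM, log axis) in 12 cell pools of the BTYNB and combination libraries, shown for pools of at least 50 cells with 95% Poisson intervals. Irf8 peaks at 1847 CPM in plasmacytoid dendritic-like cells, Jak2 at 1247 CPM in mature dendritic-like cells, and Ifngr1 at 851 CPM in NK-like cells.

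In tumour cells, Irf1 was higher in each treated library than in control. Its level was 97.6 CPM (95.4 to 99.8) in control, 133 CPM (130 to 136) in BTYNB, 129 CPM (127 to 132) in anti-PD-1 and 145 CPM (142 to 148) in combination. Control stood below the 3 treated libraries, and no interval of these overlapped that of control. Jak2 was at 58.4 CPM with control treatment, 84.3 CPM after BTYNB, 72.0 CPM after anti-PD-1 and 69.5 CPM after both agents, with the highest level under BTYNB alone. Socs1 was at 6.37, 8.29, 9.47 and 10.2 CPM in the same order of libraries, again with control lowest. The 3 genes include the central effector, a kinase and the inhibitor of the same pathway.

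Receptor chains and Jak1 were lower under anti-PD-1. Ifngr1 was at 25.5 CPM with control treatment, 23.4 CPM after BTYNB, 17.2 CPM after anti-PD-1 and 21.2 CPM after both agents. Ifngr2 was at 49.6, 52.3, 38.8 and 46.3 CPM. Jak1 was at 97.2, 91.5, 70.1 and 80.8 CPM. For each of the 3 the anti-PD-1 library was lowest and its interval did not overlap those of the others. Stat2 and Irf9 stood out in combination instead, with 47.0 CPM of Stat2 against 34.2 to 36.0 CPM and 48.8 CPM of Irf9 against 39.7 to 44.0 CPM in the other libraries.

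Against control, 4 of 9 genes were higher by at least 1.3-fold under BTYNB, a share to be read beside 14.0% of 13866 genes, and 0 were lower, beside 11.0%. These were Jak2 with a log2 ratio of 0.53 (0.47 to 0.59), Irf1 with 0.45 (0.40 to 0.49), Socs1 with 0.38 (0.19 to 0.57), which passed 1.3-fold under 4 of 11 alternatives, and Irf8 with 1.06 (0.58 to 1.54). Under anti-PD-1, 3 of 9 were higher (12.8% of 14271 genes) and 2 lower (15.0%). Irf1 was higher by 0.41 (0.36 to 0.45), Socs1 by 0.57 (0.40 to 0.74) and Irf8 by 1.12 (0.68 to 1.58), while Ifngr1 had a log2 ratio of -0.56 (-0.66 to -0.46) and Jak1 one of -0.47 (-0.52 to -0.42). Ifngr1 passed 1.3-fold under 10 of 11 alternatives and Jak1 under 9 of 11. Without cells with a UMI of the cycle transcripts Mki67 or Top2a, Ifngr1 came to -0.26. Both contrasts use the same control library. The medians over the 9 genes were 0.08 under BTYNB and -0.05 under anti-PD-1, beside 0.01 and -0.07 over all genes tested.

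The combination was then set against each single agent. The shares of all genes past 1.3-fold differed between these contrasts, so each count is read beside its own share. The count against anti-PD-1 lay near that share. Against anti-PD-1, 2 of 9 were higher (17.9% of 14129 genes) and 0 lower (11.4%), namely Stat2 by 0.46 (0.38 to 0.54) and Irf8 by 0.61 (0.27 to 0.95), with a median of 0.25 beside 0.07 over all genes. Stat2 passed 1.3-fold there under 9 of 11 alternatives and came to 0.24 without cells of at least 3 Cd24a UMIs. Irf8 passed under 11 of 11. Against BTYNB the same pair passed (4.77% of 13692 genes higher and 2.37% lower), Stat2 by 0.39 (0.30 to 0.47) and Irf8 by 0.68 (0.30 to 1.06), and 0 were lower. Here Stat2 passed under 6 of 11 alternatives and Irf8 under 10 of 11. Irf1 was higher by 0.17 (0.13 to 0.21) than in anti-PD-1 and by 0.13 (0.08 to 0.17) than in BTYNB, both under the fold that counted as a call. Both contrasts use the same combination library.

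**Figure D3:**
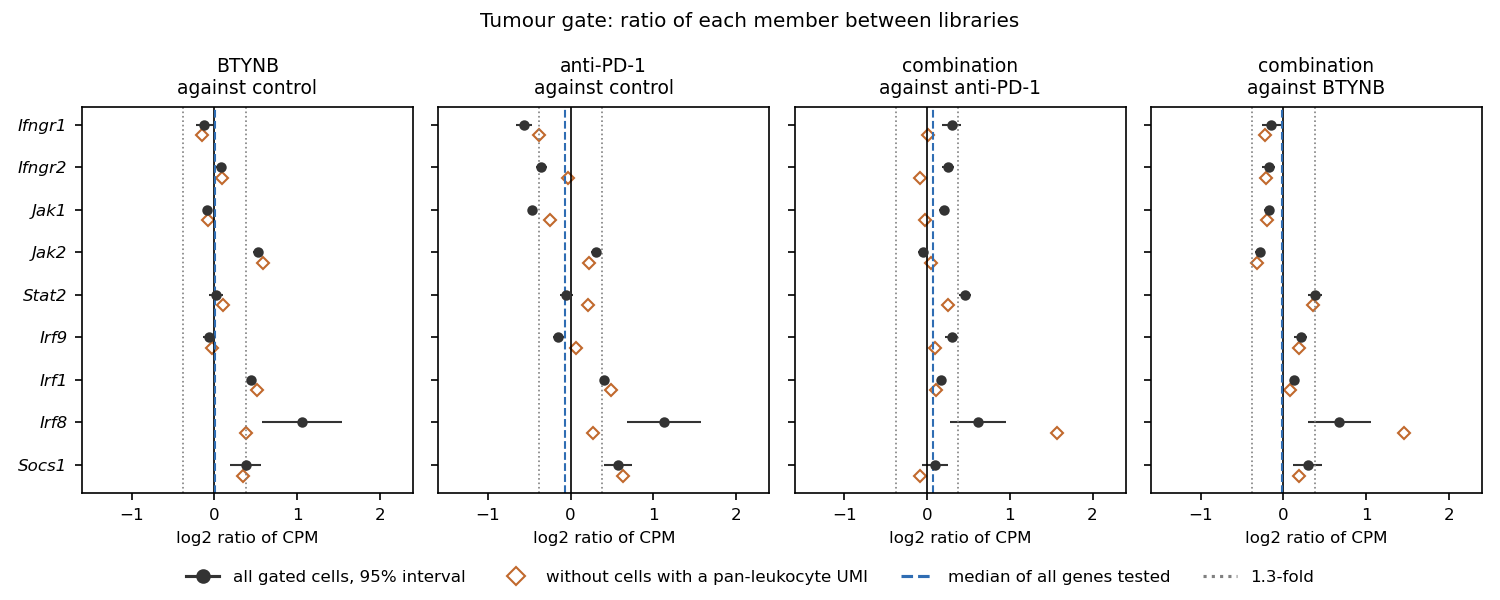
Log2 ratios of CPM of each gene in the tumour gate for 4 contrasts. Points with lines are all gated cells with 95% intervals, diamonds leave out cells with a UMI of a pan-leukocyte marker, the dashed line is the median of all genes tested and dotted lines are 1.3-fold. Irf1 lies at 0.45 and 0.41 against control in the 2 left panels, and its diamonds at 0.52 and 0.48.

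Transcripts of pan-leukocyte markers in the tumour gate moved with part of this. The 7 pan-leukocyte markers, each of which had UMIs there in every library, summed to 51.5 CPM with control treatment, 77.9 CPM after BTYNB, 206.5 CPM after anti-PD-1 and 109.9 CPM after both agents. Under anti-PD-1, Cd52 and Rac2 supplied 14155 of the 17032 UMIs, against 4011 of 12333 in the myeloid gate of that library. The source of Cd52 and Rac2 in the tumour gate was not tested. The other 5 markers summed to 20.6 CPM with control treatment, 36.2 CPM after BTYNB, 34.9 CPM after anti-PD-1 and 51.0 CPM after both agents. Irf8 was counted 61, 98, 146 and 151 times in all, or 39.5, 46.7, 50.7 and 53.1 times per 1000 UMIs of these 5 markers, against 24.0, 46.2, 51.1 and 60.4 in the myeloid gate. Without tumour-gated cells that held a UMI of any of the 7 markers, Irf8 was at 0.360 CPM with control treatment (21 UMIs), 0.468 CPM after BTYNB (15 UMIs), 0.433 CPM after anti-PD-1 (19 UMIs) and 1.29 CPM after both agents (41 UMIs). Its ratios against control were then 0.38 (-0.68 to 1.40) under BTYNB and 0.27 (-0.71 to 1.23) under anti-PD-1. The combination stayed above both single agents in these cells, by 1.57 (0.75 to 2.44) over anti-PD-1 and 1.46 (0.57 to 2.42) over BTYNB. The part of leukocyte RNA in the Irf8 values was not tested further. In the same cells Irf1 kept ratios of 0.52 under BTYNB and 0.48 under anti-PD-1, and Jak2 one of 0.59 under BTYNB. The lower levels under anti-PD-1 came to -0.38 for Ifngr1, -0.25 for Jak1 and -0.03 for Ifngr2, and the higher Stat2 in combination to 0.26 against anti-PD-1 and 0.36 against BTYNB. This choice left 6397 of 10923 anti-PD-1 cells. When cells with a UMI of the other 5 markers were left out in place of it, 9805 of them remained, and the ratios under anti-PD-1 were -0.58 (-0.68 to -0.47) for Ifngr1, -0.46 (-0.51 to -0.41) for Jak1 and -0.35 (-0.42 to -0.28) for Ifngr2, near those of the whole gate. Stat2 was then higher in combination by 0.45 over anti-PD-1 and 0.32 over BTYNB, and Irf8 was higher by 0.33 (-0.59 to 1.23) under BTYNB and 0.34 (-0.42 to 1.13) under anti-PD-1, with 20 to 60 UMIs per library. Between these choices of markers, the smaller ratios of the receptor chains and Jak1 thus came with the removal of cells that held Cd52 or Rac2.

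Targets and relatives of the 9 genes were read from lists by role. Of 14 interferon-gamma targets, 3 were higher by at least 1.3-fold and 0 lower in tumour cells under BTYNB (median 0.12, beside 14.0% of all genes higher and 11.0% lower), and 10 were higher and 0 lower under anti-PD-1 (median 0.56, beside 12.8% and 15.0%). In combination 11 of 14 were higher than in BTYNB (median 0.52, beside 4.77% of all genes) and 3 of 14 higher than in anti-PD-1 (median 0.10, beside 17.9%), with 0 lower in both (beside 2.37% and 11.4%). Igtp, an interferon-inducible GTPase, was at 69.9 CPM with control treatment, 73.3 CPM after BTYNB, 146 CPM after anti-PD-1 and 132 CPM after both agents. For Igtp the 2 libraries with the antibody were thus the high ones. The chemokine Cxcl9 was higher than in control under each single agent, by 1.39 under BTYNB and 1.12 under anti-PD-1. Cd274, which encodes PD-L1, was 0.68 higher under BTYNB than in control, at 13.6 against 8.50 CPM, and Irgm2, another such GTPase, was lower at 98.3 against 124 CPM. Cxcl10, a T cell chemokine, was at 73.6 CPM after both agents and 34.0 CPM after anti-PD-1.

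The targets of type I interferon formed a list of their own, whose difference from the interferon-gamma targets was not tested. Under BTYNB 0 of the 8 that could be read were higher and 4 lower (median -0.32, beside 14.0% and 11.0% of all genes), among them Ifit3 at 2.23 against 3.33 CPM and Ifi44 at 28.4 against 39.3 CPM. Under anti-PD-1 1 of 9 was higher and 2 lower (median -0.06, beside 12.8% and 15.0%). The higher one, Mx1, was at 4.77 CPM against 0.293 CPM with control treatment, 0.448 CPM after both agents and 0.242 CPM after BTYNB, with few UMIs behind the lower values. In combination 5 of 8 were higher than in BTYNB and 0 lower (median 0.43, beside 4.77% and 2.37%), led by Ifit3 at 4.53 CPM.

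Other receptor chains, kinases and inhibitors were read in the same way. Of 5 further receptor chains and kinases, 1 was higher in tumour cells under BTYNB (14.0% of all genes) and 1 under anti-PD-1 (12.8%), in both cases Tyk2, the kinase of the type I receptor, at 7.46 and 6.89 CPM against 4.71 CPM with control treatment. Ifnar2 was at 19.8 CPM after anti-PD-1 and 29.0 CPM after both agents. It was the 1 of 5 past 1.3-fold between these libraries, beside 17.9% of all genes higher and 11.4% lower. Of 11 further inhibitors, 4 were higher and 1 lower under BTYNB (beside 14.0% and 11.0%), with Cish at 7.27 against 4.09 CPM, Socs3 at 178 against 111 CPM and Usp18 at 15.7 against 21.7 CPM. Under anti-PD-1 3 of 11 were higher and 0 lower (beside 12.8% and 15.0%), with Socs2 at 9.15 against 3.72 CPM. None of 7 interferon ligands reached 100 UMIs in tumour or myeloid cells, and Ifng itself was counted 5 to 7 times per library in the tumour gate. Igf2bp1, the target of BTYNB, was at 8.60 CPM with control treatment, 9.21 CPM after BTYNB, 12.2 CPM after anti-PD-1 and 11.5 CPM after both agents. Mdm2, a ubiquitin ligase, was at 28.9, 40.4, 35.0 and 38.0 CPM, a log2 ratio of 0.48 under BTYNB against control. In human ES-2 cells the study reports that IGF2BP1 stabilises MDM2 mRNA and thereby speeds the decay of IRF1 protein. Only RNA levels in mouse cells were read here, and neither RNA stability nor protein.

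In the myeloid gate the pattern under BTYNB was broader. Jak2 was at 50.6 CPM (40.6 to 62.5) in control, 135 CPM (130 to 141) in BTYNB, 52.2 CPM (42.0 to 64.2) in anti-PD-1 and 102 CPM (95.3 to 108) in combination, so the libraries with BTYNB were the high ones. Stat2 had the same split, with 73.9, 136, 66.1 and 116 CPM. Ifngr1 was at 187 CPM with control treatment, 354 CPM after BTYNB, 128 CPM after anti-PD-1 and 181 CPM after both agents, high in BTYNB alone and lowest in anti-PD-1. Irf8 was at 111 CPM (95.4 to 127) in control and at 284, 247 and 312 CPM in the treated libraries. Irf1 was at 138, 207, 173 and 209 CPM, with control lowest as in tumour cells, and its control and anti-PD-1 intervals (121 to 157 and 154 to 194) overlapped. Jak1 lay between 164 and 184 CPM, and the intervals of BTYNB (177 to 190) and combination (159 to 176) were apart while those of control and anti-PD-1 overlapped both.

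Under BTYNB 8 of 9 genes were higher than in control by at least 1.3-fold (21.4% of 9538 genes) and 0 lower (25.2%), with a median of 0.88 beside -0.03 over all genes. The largest ratios were those of Jak2 at 1.42 (1.11 to 1.74), Irf8 at 1.36 (1.15 to 1.58) and Socs1 at 1.20 (0.19 to 2.44, from 8 control UMIs), followed by Ifngr1 at 0.92 (0.76 to 1.08) and Stat2 at 0.88 (0.62 to 1.15). Jak1 was the exception at 0.04 (-0.13 to 0.22). Under anti-PD-1, of the 8 genes with at least 100 UMIs, 1 was higher (10.1% of 5137 genes) and 1 lower (16.2%). Irf8 was higher by 1.16 (0.91 to 1.41) and Ifngr1 had a ratio of -0.55 (-0.80 to -0.30), while Socs1 at 0.995 (-0.31 to 2.43) rested on 24 UMIs, too few to be counted. Against anti-PD-1 the combination had 3 of 9 higher (17.7% of 8633 genes) and 0 lower (18.6%), Jak2 by 0.96 (0.65 to 1.29), Stat2 by 0.81 (0.53 to 1.10) and Ifngr1 by 0.50 (0.30 to 0.71). Against BTYNB it had 0 of 9 higher (15.4% of 10355 genes) and 3 lower (11.7%), with Ifngr1 at -0.97 (-1.04 to -0.89), Jak2 at -0.41 (-0.52 to -0.30) and Ifngr2 at -0.38 (-0.51 to -0.25).

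**Figure D4:**
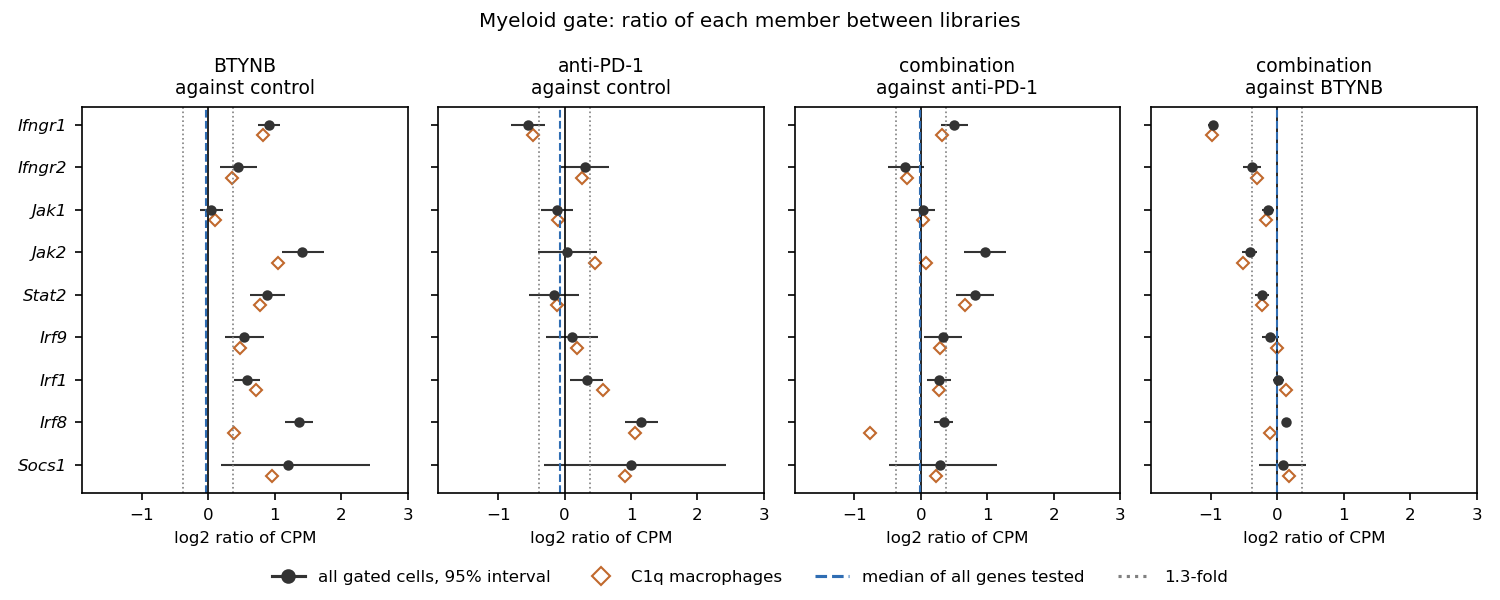
Log2 ratios of CPM of each gene in the myeloid gate for 4 contrasts. Points with lines are all gated cells with 95% intervals, diamonds are C1q macrophage-like cells, the dashed line is the median of all genes tested and dotted lines are 1.3-fold. Under BTYNB 8 of 9 points lie past 1.3-fold on the right, beside 21.4% of all genes, and the diamond of Irf8 lies at 0.39.

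The makeup of the myeloid gate moved with these ratios. C1q macrophage-like cells were 82.9% of the gate in control (exact binomial interval 78.1 to 87.0%), 49.5% after BTYNB (47.7 to 51.2%), 94.3% after anti-PD-1 (91.5 to 96.4%) and 73.1% after both agents (70.6 to 75.6%). Type 1 dendritic-like cells, the pool of high Irf8, were 0.342%, 6.41%, 2.60% and 14.5% of the gate, and Ly6c2 monocyte-like cells, the myeloid pool of high Ifngr1, 7.88%, 33.5%, 4.95% and 12.6%. Within macrophage-like cells alone, Irf8 was at 118 CPM with control treatment, 155 CPM after BTYNB, 245 CPM after anti-PD-1 and 144 CPM after both agents. Its ratio under BTYNB was then 0.39 (0.16 to 0.63) in place of 1.36, and combination over anti-PD-1 came to -0.77 (-0.94 to -0.60) in place of 0.34. Jak2 was at 36.3, 75.0, 50.2 and 52.7 CPM, which left 1.05 under BTYNB but 0.07 for combination against anti-PD-1. Ifngr1 was at 173, 306, 125 and 155 CPM in macrophage-like cells, Stat2 at 72.0, 124, 66.7 and 105 CPM and Irf1 at 117, 191, 175 and 210 CPM, so these 3 genes kept the order of the libraries seen in the whole gate. Under BTYNB 7 of 9 genes passed 1.3-fold in macrophage-like cells, for which no share of all genes is given, so this count has no background. Median depth in the gate was 4202.5 to 7067 UMIs, and the 8 tumour markers summed to 79.0 CPM after BTYNB against 629 to 740 CPM in the other libraries, for the most part Slpi, with 33.2 against 462 to 559 CPM. Globin transcripts summed to 360 CPM after BTYNB and 263 CPM after both agents, against 96.6 CPM with control treatment and 12.8 CPM after anti-PD-1. The part of these differences in the ratios was not tested.

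Of the interferon-gamma targets in myeloid cells, 8 of 14 were higher and 4 lower under BTYNB (median 0.40, beside 21.4% of all genes higher and 25.2% lower), 7 higher and 0 lower under anti-PD-1 (median 0.38, beside 10.1% and 16.2%), and 2 higher and 7 lower in combination against anti-PD-1 (median -0.35, beside 17.7% and 18.6%). Cxcl9, a chemokine that depends on interferon-gamma, was at 18.6 CPM with control treatment, 49.4 CPM after BTYNB, 129 CPM after anti-PD-1 and 58.7 CPM after both agents. Iigp1 was at 130, 55.9, 324 and 129 CPM, lowest where Cxcl9 was not. Thus the anti-PD-1 library was highest for both targets, while the receptor chain Ifngr1 was lowest there. Of 9 type I targets, 5 were higher and 0 lower under BTYNB (median 0.42, beside 21.4% and 25.2%), led by Isg15 at 28.8 against 10.5 CPM, and Irf7, the amplifier of type I interferon, was at 48.3 against 23.9 CPM.

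In lymphocytes only BTYNB and combination could be compared, and depth moved with the result. T-gated cells had a median of 2149 UMIs in BTYNB and 7500 in combination, B-gated cells 1950 and 8305.5. In the T gate, 2 of 9 genes were higher in combination (27.7% of 8675 genes) and 5 lower (27.9%). Ifngr1 was at 605 CPM after BTYNB and 190 CPM after both agents, Jak1 at 601 and 225 CPM, Irf1 at 418 and 209 CPM, and Socs1 at 70.5 and 26.2 CPM. When only cells of a single gate and at least 5115 UMIs were used, which left 102 BTYNB and 52 combination cells, Ifngr1 was at 450 and 346 CPM, a ratio of -0.38 (-0.68 to -0.08) in place of -1.67, and Jak1 at 453 and 310 CPM, a ratio of -0.55 (-0.87 to -0.24) in place of -1.42. Irf1 was then at 240 CPM after both agents and 215 CPM after BTYNB, a ratio of 0.16 (-0.23 to 0.54), Socs1 at -0.14 (-1.07 to 0.73) in place of -1.43, and Irf8 at 0.01 (-0.39 to 0.39) in place of 0.51. Exclusive gates without the depth limit gave Irf8 a ratio of 2.10 (1.73 to 2.46), at 226 against 52.7 CPM. The depth limit alone gave -0.58 and stricter gates -0.07. Its value thus moved with both the gate and the depth limit, and the cause was not tested. The T and B pools of control and anti-PD-1 gave 3 to 57 UMIs per gene and 938 to 1678 CPM of keratins, and are shown as levels only.

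In the B gate the ratios also moved with depth. With the gate as given, 0 of 9 genes were higher in combination (24.1% of 10412 genes) and 7 lower (29.5%), led by Irf8 at 64.1 against 186 CPM, Jak1 at 134 against 305 CPM and Jak2 at 91.7 against 171 CPM. Among 72 BTYNB and 64 combination cells of a single gate and at least 5115 UMIs, Irf8 was at 236 CPM after both agents and 289 CPM after BTYNB, a ratio of -0.29 (-0.67 to 0.08) in place of -1.54, and Jak1 at 280 and 265 CPM, a ratio of 0.08 (-0.28 to 0.43) in place of -1.18. With exclusive gates alone Irf8 had a ratio of -0.49 (-0.80 to -0.19) and Jak1 one of -0.80 (-1.08 to -0.53). Ifngr1 was at 76.1 against 201 CPM under both choices, a ratio of -1.40 (-2.02 to -0.82) from 31 combination UMIs, but had ratios of -0.37 (-0.94 to 0.15) with exclusive gates alone and -0.36 (-0.63 to -0.09) with the minimum of 5115 UMIs alone. Of the ligands, Ifng could be read in the T gate, at 37.7 CPM after BTYNB (288 UMIs) and 42.3 CPM after both agents (58 UMIs), a log2 ratio of 0.17.

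**Figure D5:**
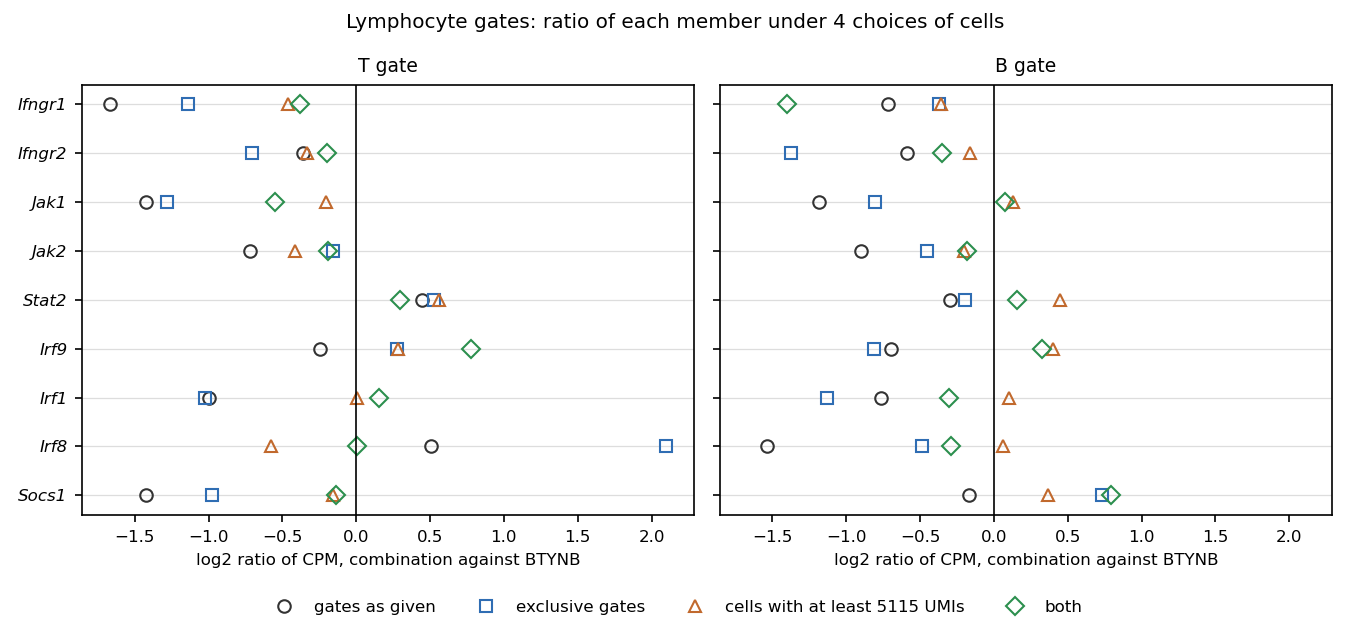
Log2 ratios of CPM, combination against BTYNB, in the T and B gates under 4 choices of cells. With the gates as given 7 of 9 genes pass 1.3-fold in each gate. Of all genes, 27.7% are higher and 27.9% lower by as much in T, and 24.1% and 29.5% in B. With exclusive gates and at least 5115 UMIs 3 of 9 pass in T and 2 of 9 in B, with no share of all genes given for these cells.

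Whether BTYNB went with the same change in the presence and absence of the antibody was read from the difference of the 2 ratios. In tumour cells Jak2 was 0.53 higher under BTYNB alone but -0.05 when the antibody was present, a difference of -0.58 (-0.66 to -0.50). Stat2 went the other way, with 0.02 and 0.46, a difference of 0.44 (0.32 to 0.55), as did Ifngr1 with 0.42 (0.27 to 0.57), Irf9 with 0.36 (0.25 to 0.47) and Jak1 with 0.29 (0.22 to 0.37). Irf1 had a difference of -0.28 (-0.34 to -0.22), Socs1 one of -0.28 (-0.52 to -0.04), Ifngr2 one of 0.18 (0.07 to 0.28) and Irf8 one of -0.45 (-1.01 to 0.12). Without the cells that held a pan-leukocyte UMI, the difference was -0.18 (-0.31 to -0.05) for Ifngr2 and 1.19 (-0.05 to 2.43) for Irf8, both of the other sign, and it came to 0.16 (0.02 to 0.30) for Stat2, 0.16 (-0.04 to 0.36) for Ifngr1, 0.13 (-0.01 to 0.26) for Irf9 and 0.05 (-0.05 to 0.15) for Jak1. Jak2 with -0.55, Irf1 with -0.41 and Socs1 with -0.44 stayed below 0. When Cd52 and Rac2 were not among the markers, the values were 0.17 (0.06 to 0.29) for Ifngr2, 1.24 (0.20 to 2.27) for Irf8, 0.36 for Stat2, 0.39 for Ifngr1, 0.38 for Irf9 and 0.27 for Jak1. In myeloid cells the differences ran from -1.02 (-1.28 to -0.76) for Irf8 to -0.02 (-0.27 to 0.23) for Jak1, and their intervals held 0 for Jak1, Stat2, Irf9 and Socs1. Such differences were not computed over all genes, so the shared sign is not read as a trait of these genes. The intervals cover counting error in 4 single libraries.

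Shares of cells with a transcript were read after thinning, since they rise with depth. After each cell was thinned to 1000 UMIs, Irf1 was found in 9.88% of control tumour cells (9.20 to 10.6%), 11.9% after BTYNB, 11.8% after anti-PD-1 and 13.9% after both agents (12.9 to 15.0%), and without thinning in 56.5%, 67.6%, 54.8% and 71.1%. Jak2 was found in 5.93% of control and 8.84% of BTYNB tumour cells (7.93 to 9.81%) after thinning. Irf8 was found in 0.0703% to 0.343% of tumour cells and in 9.93% to 21.6% of myeloid cells after thinning, and a share as low as in tumour cells was not told apart from free RNA or mixed cells. Thinning left out 19 BTYNB tumour cells and 15 BTYNB myeloid cells and none of the other libraries in these 2 gates.

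The genes most alike in level over 12 pools of at least 100 cells, 1 per gate and library, were Snx20 (Pearson r = 0.994) and Bmyc (0.992) for Irf8, Ddx24 (0.974) and Ogt (0.965) for Irf1, Zfp654 (0.987) and Top2b (0.983) for Jak1, and Txk (0.979) and Btbd11 (0.968) for Socs1. Mbd2 (0.983) was closest to Ifngr1 of the named genes, and Zfp513 (0.926) to Ifngr2. Stat2 was followed by Htr7 (0.972), Irf9 by Tut7 (0.973) and Jak2 by Srsf11 (0.962). The pools share libraries and differ in depth and cell type, so these values only describe which levels ran in parallel.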

How the data were processed

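Ascites cells of mice from 4 treatments were captured on the BD Rhapsody microwell platform, 1 pooled library each. Per the study's methods, reads were processed with BD's Rhapsody analysis pipeline, version 2.0 (GRCm39 per the submitters' processing notes), and the authors deposited raw UMI counts per gene and cell. Samples were grouped by the treatment label. Cells with fewer than 200 genes or more than 33% of UMIs from the 13 genes with the prefix mt- were removed, which kept 45178 of 46342 cells. Gates were tumour (at least 5 UMIs of Krt7, Krt8, Krt18, Krt19 and Wt1 and 0 of Ptprc), myeloid (at least 3 of Lyz2 and Csf1r and at most 2 keratin UMIs), T (at least 2 of Cd3d, Cd3e and Cd3g) and B (at least 3 of Cd79a and Cd79b). Doublets were not called, and cells of several gates were removed in an alternative, the exclusive gates. For T and B these gates also required at most 2 keratin UMIs. UMIs were summed per gate and library and given as CPM with exact Poisson intervals. Ratios were log2 ratios of CPM with the exact binomial (Clopper-Pearson) interval of the share of counts, shares of cells carry the same kind of interval, and differences of ratios a normal interval from the counts. All are 95% intervals and cover counting error only, and the precision of a level follows from its UMIs. With 1 library per group no test was run. A call meant at least 1.3-fold between libraries or 2-fold between gates, counted among genes with at least 100 UMIs over both pools, and ratios needed at least 50 cells in both. Members, lists and gates were chosen with earlier results of these data known. Of each list, the 2 highest and 2 lowest genes of a contrast could be named, with their values in other libraries, and Ifng in tumour cells was named after its values were seen. One list of relatives is not reported here. Ratios and intervals were tested on simulated counts. The alternatives were no filter on cells, a minimum of 5115 UMIs, exclusive gates, stricter gates, removal of tumour cells with Cd24a or cycle transcripts, means over cells, median-of-ratios scaling, a pseudocount of 1 CPM, no minimum of UMIs and a 1.5-fold call. C1q macrophage-like and CD8 T-like cells, tumour cells without pan-leukocyte UMIs (with and without Cd52 and Rac2 among the markers), and exclusive gates with the depth minimum were added after seeing the data. Python 3.11.15 with numpy 2.4.6, scipy 1.17.1, pandas 2.3.3 and matplotlib 3.10.9 was used.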

Additional observations from a re-analysis of the deposited data

How the results depend on the processing

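No paired analysis was possible because each group holds 1 library, and no library could be left out for the same reason. Of 90 ratios of the 9 genes, 44 passed 1.3-fold, and 37 of these kept their sign under every alternative run, 17 of them past 1.3-fold throughout. The 44 take in Socs1 under anti-PD-1 in myeloid cells, which had too few UMIs for a call. Of 837 alternative values of single genes 666 lay within the counting interval of the reported ratio, as did 89 of 93 medians within the range set by the second lowest and second highest gene. With a minimum of 5115 UMIs, Socs1 under anti-PD-1 in myeloid cells became -0.23. In the T gate Irf1 became 0.0024 and Irf8 -0.58, and Irf8 was -0.0707 with stricter gates. In the B gate the median became 0.10, with Jak1 at 0.13, Irf9 at 0.40, Irf1 at 0.10 and Irf8 at 0.064. Exclusive gates with that minimum, chosen after seeing the data, gave 0.16 for Irf1 in T, and in B a median of -0.18, Jak1 at 0.0779 and Irf9 at 0.33. The genes past 1.3-fold in T were then 4 under the minimum and 3 under both choices, and in B 2 and 2. No share of all genes is given for these cells, so the counts have no background.

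A call at 1.5-fold left 1 gene in each of the 4 tumour contrasts, in each case Irf8. It left 1 in myeloid combination against BTYNB, Ifngr1. The shares of all genes at 1.5-fold are not given. Without tumour cells holding a pan-leukocyte UMI, chosen after seeing the data, the counts were 2 under BTYNB, 3 under anti-PD-1, 1 in combination against anti-PD-1 (median 0.0436) and 1 against BTYNB, and with Cd52 and Rac2 not among these markers they were 2 under BTYNB and 1 in combination against BTYNB. Without cells of at least 3 Cd24a UMIs combination against anti-PD-1 had 1 gene, Irf8 and no longer Stat2, and a median of 0.092. Combination against BTYNB had 1 gene with exclusive gates, with means over cells and with a pseudocount of 1 CPM. In myeloid cells the count was 5 under anti-PD-1 in C1q macrophage-like cells, also chosen after seeing the data, and 6 in combination against anti-PD-1 at 5115 UMIs or more. The 5 take in Socs1, which had too few UMIs for a call. No share of all genes is given for these alternative choices of cells. Apart from the changes of cells, which alter the cells counted by construction, the cause was not tested. Without a minimum of UMIs all 20 background shares moved, to between 14.2% and 57.4%. Depth limits Socs1 in control myeloid cells (8 UMIs) and Irf8 in tumour cells (61 to 151 UMIs).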
